A study of Sus scrofa with 12 samples.

Results

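The 10 genes COL6A1, COL6A2, COL6A3, COL8A1, COL8A2, COL12A1, COL14A1, COL15A1, COL16A1 and COL18A1 encode collagens that do not form the thick striated fibrils themselves. They were chosen by name as beaded, network and fibril-associated collagens, and all 10 were found among the 35682 genes of the count files. RNA was sequenced in 12 libraries, a border zone and a remote zone sample from each of 6 Yorkshire pig hearts with the numbers 1022, 1322, 1323, 1623, 1922 and 3622, all sampled at the mid level. The border zone was the tissue next to the infarct and the remote zone came from the posterior wall, so region and place in the heart cannot be told apart. Every animal had its left anterior descending artery closed by a balloon for 60 min and then reopened. From day 9 every animal received daily immunosuppression, with 20 mg of prednisolone, 500 mg of mycophenolate mofetil and 0.75 mg/kg of tacrolimus. At day 14 the chest was opened. Either vascular organoids of endothelial progenitor and smooth muscle cells or fibrin glue were then placed on the heart, per the labels. The study's methods add that fibrin sealant also held the organoids in place, so both arms received it. Hearts were taken 4 weeks later. No heart without ischemia was analysed here, so the remote zone was the only reference, and it carried the same drugs and operation. The labels do not say which animal received which treatment, so each region held animals of both arms, and treatment and spread between animals cannot be told apart. The implanted cells were of human origin, and reads were aligned to the pig genome alone.

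Collagen VI is a trimer of 3 different chains, of which COL6A1, COL6A2 and COL6A3 encode the common set, and it assembles into beaded microfilaments around cells. Collagen VIII is a short-chain collagen that forms lattices in vessel walls and under endothelium, built from the chains of COL8A1 and COL8A2. Collagens XII, XIV and XVI lie on or between the large fibrils, while collagens XV and XVIII bridge basement membranes to the matrix beneath, and the carboxy-terminal end of collagen XVIII can be cut off as endostatin. In heart muscle these collagens are made mainly by fibroblasts and vascular cells.

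In the Sscrofa11.1 genome, with RefSeq gene models, 9 of the 10 genes were found, and a model for COL6A1 was not used here. COL6A2 lay at 595471 to 630235 of an unplaced scaffold on the minus strand. The genes on the plus strand were COL12A1 (chr1:90744409-90875127), COL15A1 (chr1:240718128-240829188) and COL18A1 (chr13:207907835-207984082). The genes on the minus strand were COL6A3 (chr15:137011549-137103687), COL8A1 (chr13:159216138-159374718), COL8A2 (chr6:92246047-92272046), COL14A1 (chr4:18690197-18925111) and COL16A1 (chr6:88177798-88243718). COL8A1 and COL14A1 each held 1 annotated pseudogene on their own strand, LOC110256440 and LOC110260420, and neither touched an exon of the collagen gene. No gene model on the opposite strand overlapped any of the 9 genes, which matters because the libraries did not keep strand.

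The 250 bases before the annotated start are shown for 4 of these genes, 1 each of the beaded, network, fibril-associated and basement membrane types, because these genes were higher in the border zone of every animal and yet have unlike sequence before their starts. Sequences are from Sscrofa11.1 and run 5′ to 3′ on the strand of the gene. Capitals mark matches on either strand to the motifs searched. The core promoter motifs were the TATA element, spelled TATAAA, the CCAAT box, spelled as its name, and the GC box, spelled GGGCGG. The other motifs were the AP-1 site, spelled TGANTCA, the SMAD site, spelled CAGAC, and the TEAD site, spelled CATTCC. The windows are chr15:137103688-137103937 for COL6A3, chr13:159374719-159374968 for COL8A1, chr1:90744159-90744408 for COL12A1 and chr13:207907585-207907834 for COL18A1.
COL6A3: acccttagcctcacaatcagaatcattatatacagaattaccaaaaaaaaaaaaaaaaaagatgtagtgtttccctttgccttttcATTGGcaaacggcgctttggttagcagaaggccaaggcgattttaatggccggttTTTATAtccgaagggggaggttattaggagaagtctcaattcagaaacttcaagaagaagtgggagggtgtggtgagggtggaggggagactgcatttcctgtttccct
COL8A1: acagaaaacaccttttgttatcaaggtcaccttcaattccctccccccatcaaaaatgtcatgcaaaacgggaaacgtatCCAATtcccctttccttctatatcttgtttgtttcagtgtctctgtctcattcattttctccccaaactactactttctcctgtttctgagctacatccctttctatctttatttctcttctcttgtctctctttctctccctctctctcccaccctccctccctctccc
COL12A1: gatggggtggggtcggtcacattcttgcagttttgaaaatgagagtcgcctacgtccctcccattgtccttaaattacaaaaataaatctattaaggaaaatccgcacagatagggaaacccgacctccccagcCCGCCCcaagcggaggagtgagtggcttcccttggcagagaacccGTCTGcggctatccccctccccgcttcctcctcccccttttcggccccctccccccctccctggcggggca
COL18A1: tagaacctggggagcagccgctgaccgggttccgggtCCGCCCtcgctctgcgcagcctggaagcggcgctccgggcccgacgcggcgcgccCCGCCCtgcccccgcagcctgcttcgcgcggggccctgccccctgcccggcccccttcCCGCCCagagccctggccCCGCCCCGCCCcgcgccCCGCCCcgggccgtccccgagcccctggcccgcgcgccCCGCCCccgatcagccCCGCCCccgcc
Of the bases shown, 42.4% were G or C for COL6A3, 43.2% for COL8A1, 58.0% for COL12A1 and 84.4% for COL18A1, where the median of the same window over 19557 genes was 57.6%. COL6A3 was the only one of the 9 genes read with a TATA element, 109 to 104 bases before its start, while 9.77% of all windows held one. COL18A1 held 8 GC boxes, of which 1 pair shared 1 base, and COL6A3 and COL8A1 held none. A GC box was found before 6 of the 9 genes and in 45.9% of all windows, a CCAAT box before 3 of 9 and in 31.9%, and a SMAD site before 4 of 9 and in 39.0%. No AP-1 or TEAD match lay in the 9 windows, against 5.27% and 10.3% of all windows. These matches describe letters only.

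The counts on genes summed to 15130210 to 30526110 per border zone library and 20091415 to 31618680 per remote zone library, and the 10 genes together drew 18387 to 392085 of them. Levels are given as CPM, counts scaled to one common library size after TMM correction of the totals for differences in composition. Transcripts of 13 mitochondrial protein genes made up 5.69% to 17.32% of a border zone library and 13.6% to 33.46% of a remote zone library, the highest share being that of animal 3622. The border zone library of animal 3622 had the lowest total and the most genes detected, 28024, while the other 11 libraries had 16932 to 20148. The border zone library of animal 1022 stood apart for these collagens, and the fold changes of the 10 members are given with and without that animal.

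All 10 genes had a positive log2 fold change of border zone over remote zone, and 7 of 10 had an adjusted p under 0.05 in edgeR's quasi-likelihood test after Benjamini-Hochberg adjustment over the 13844 genes tested. Of all genes tested 2.07% were called, and 2.06% in the same direction as the collagens. The 7 were COL6A2, COL6A3, COL8A1, COL8A2, COL12A1, COL14A1 and COL16A1, while COL6A1 and COL18A1 lay just above the threshold and COL15A1 well above it. With the animal as a replicate block, which compares the regions inside each heart, 0 of 10 were called by edgeR against 0.289% of all genes, and 9 of 10 had an unadjusted p under 0.05, where 17% of all genes were past that mark and higher. The median log2 fold change over the 10 genes was 2.46, and 1.89 with the block, while over all genes tested it was 0.04 and 0.05. For 9 genes the border zone value was above the remote zone value inside each of the 6 animals, a pattern found in 11.7% of genes tested. For 5 genes, COL6A3, COL8A1, COL8A2, COL12A1 and COL14A1, the lowest border zone CPM was above the highest remote zone CPM, which held for 1.99% of genes tested. In bulk tissue, more cells of a type and more RNA per cell cannot be told apart.

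**Figure D1:**
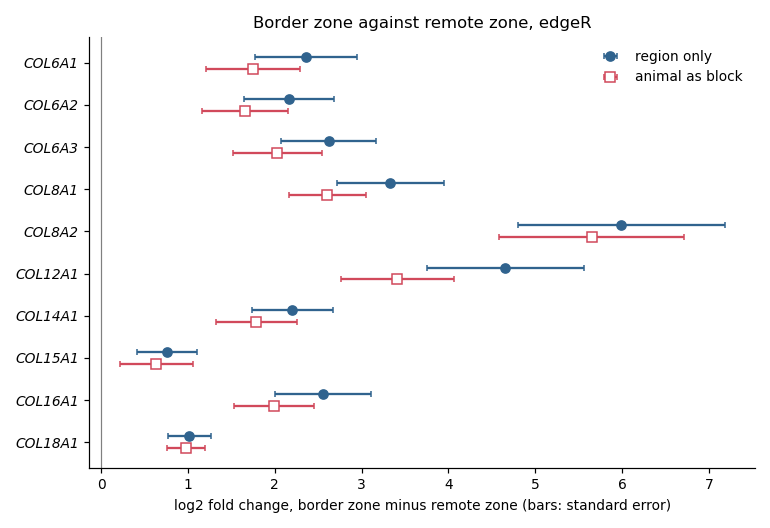
The log2 fold change of border zone over remote zone is plotted for the 10 collagen genes, with bars of 1 standard error, for the fit with region only (filled circles) and with the animal as a block (open squares), 6 libraries per region. All points lie above 0, from 0.76 for COL15A1 to 5.99 for COL8A2 with region only, and the 10 blocked values are lower.

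The 3 chains of collagen VI had like differences. COL6A1, which encodes the alpha 1 chain (ENSSSCG00000022506), had a CPM of 148.3 to 428.1 in the remote zone (median 203.3) and of 310.0 to 4191 in the border zone (median 648.2). Its highest remote value, in animal 3622, was above its lowest border value, in animal 1322, so the regions overlapped. That remote library had 6403 of 22295451 counts and that border library 6365 of 20866200, so the overlap rests on the TMM scaling. The border zone was higher inside each animal. The log2 fold change of COL6A1 was 2.36 (standard error 0.59, adjusted p = 0.0509 by edgeR, and 1.75 ± 0.54 with adjusted p = 0.0959 with the block).

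COL6A2, the alpha 2 chain (ENSSSCG00000028022), had a CPM of 131.0 to 317.0 in the remote zone (median 192.9) and of 287.5 to 2863 in the border zone (median 514.1). These ranges also overlapped through the same libraries, the remote zone of animal 3622 and the border zone of animal 1322. They had 4741 of 22295451 and 5904 of 20866200 counts, so this overlap too rests on the scaling. COL6A2 rose by 2.16 on the log2 scale (standard error 0.52, adjusted p = 0.0493 by edgeR, and 1.66 ± 0.50 with adjusted p = 0.0915 with the block). COL6A3 encodes the long alpha 3 chain (ENSSSCG00000027331), whose end is released as endotrophin. Its CPM was 58.4 to 142.6 in the remote zone (median 88.0) and 183.7 to 1908 in the border zone (median 316.8), and no border library fell into the remote range. COL6A3 rose by 2.62 (standard error 0.54, adjusted p = 0.0328 by edgeR, and 2.03 ± 0.51 with adjusted p = 0.0814 with the block).

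Collagen VIII held the gene with the largest fold change of the 10. COL8A1 (ENSSSCG00000011973) had a CPM of 9.98 to 20.2 in the remote zone (median 16.9) and of 43.0 to 584.0 in the border zone (median 81.0), so the lowest border library was above every remote library. COL8A1 rose by 3.33 (standard error 0.62, adjusted p = 0.0276 by edgeR, and 2.61 ± 0.45 with adjusted p = 0.0564 with the block). Its partner chain COL8A2 (ENSSSCG00000033641) was close to the limit of detection in the remote zone. The remote libraries of animals 1022, 1322, 1323, 1623, 1922 and 3622 held 1, 0, 29, 4, 0 and 2 reads of COL8A2, and the border libraries held 2024, 31, 96, 363, 44 and 119. In CPM this was 0 to 0.955 in the remote zone (median 0.0867) and 1.51 to 66.9 in the border zone (median 5.05). Every border library was above every remote library, and animal 1323 had both the highest remote value and the smallest difference. The fitted log2 fold change of COL8A2 was 5.99 (standard error 1.19, adjusted p = 0.0293 by edgeR, and 5.65 ± 1.07 with adjusted p = 0.0668 with the block). With so few remote reads its size is uncertain, and it ran from 4.21 to 7.97 with 1 animal left out.

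**Figure D2:**
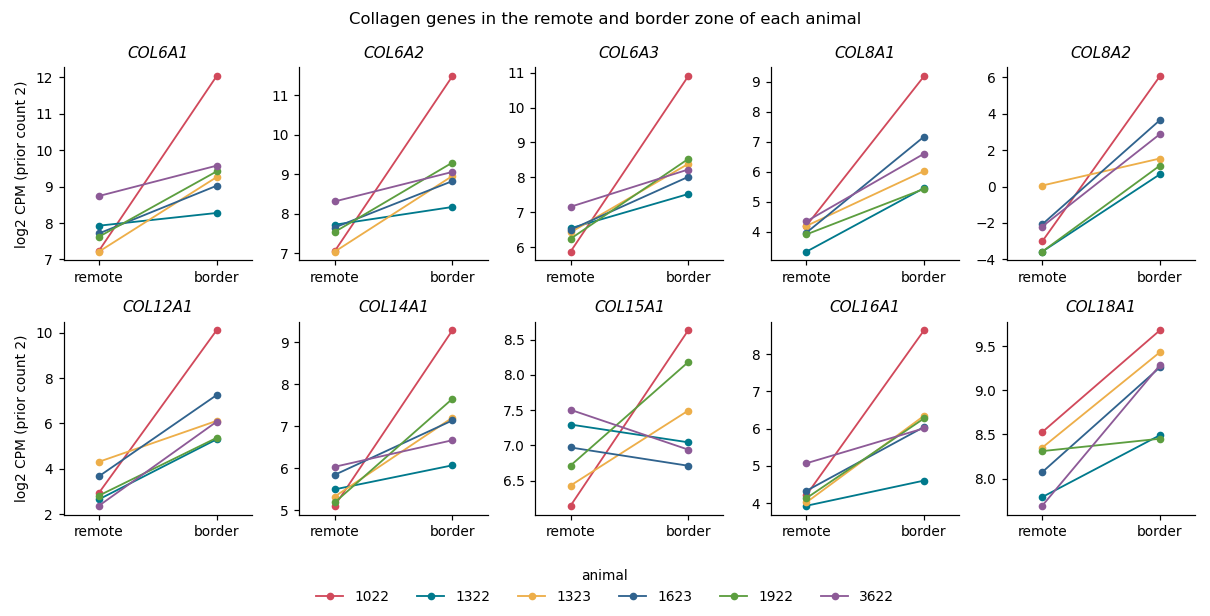
Each panel plots the log2 CPM (prior count 2) of 1 collagen gene in the remote and border zone, with 1 line per animal and its own vertical scale. Lines rise in all 6 animals for 9 genes, the border value of animal 1022 is the highest in each panel, and the lines of COL15A1 rise in 3 animals and fall in 3.

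Among the fibril-associated collagens, COL12A1 had the largest difference. COL12A1 (ENSSSCG00000004484), a large homotrimer found on fibrils of tissue under load, had a CPM of 5.08 to 19.7 in the remote zone (median 7.26) and of 39.3 to 1103 in the border zone (median 68.2). In the border zone the libraries of animals 1322, 1922, 3622, 1323, 1623 and 1022 had 39.3, 41.1, 67.3, 69.1, 152.1 and 1103 CPM. Even the lowest of these was above the highest remote library, that of animal 1323, while the highest was far from the rest. COL12A1 rose by 4.66 (standard error 0.90, adjusted p = 0.0276 by edgeR, and 3.41 ± 0.65 with adjusted p = 0.0679 with the block).

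COL14A1 (ENSSSCG00000005997), a relative of collagen XII that binds decorin and limits fibril width, had a CPM of 34.4 to 65.7 in the remote zone (median 42.7) and of 67.3 to 625.5 in the border zone (median 144.5). The ranges did not touch, but the highest remote library and the lowest border library differed by little. COL14A1 rose by 2.20 (standard error 0.47, adjusted p = 0.0338 by edgeR, and 1.79 ± 0.47 with adjusted p = 0.0820 with the block). COL16A1 (ENSSSCG00000003603), a minor collagen near cells and microfibrils, had a CPM of 15.1 to 33.4 in the remote zone (median 17.9) and of 24.2 to 397.6 in the border zone (median 71.5). The border library of animal 1322 lay inside the remote range, below the remote library of animal 3622. They had 497 of 20866200 and 500 of 22295451 counts, so this order rests on the scaling. COL16A1 rose by 2.56 (standard error 0.55, adjusted p = 0.0338 by edgeR, and 1.99 ± 0.46 with adjusted p = 0.0783 with the block).

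The basement membrane collagens had the smallest fold changes. COL15A1 (ENSSSCG00000005380), which is found around capillaries and muscle fibers, had a CPM of 70.6 to 181.6 in the remote zone (median 115.1) and of 104.7 to 396.5 in the border zone (median 156.0). Its log2 fold change of 0.76 did not pass the test (standard error 0.35, adjusted p = 0.196 by edgeR, and 0.64 ± 0.42 with adjusted p = 0.331 with the block). COL15A1 was the only member without one direction, higher in the border zone of animals 1022, 1323 and 1922, by 2.49, 1.06 and 1.47 on the log2 scale, and at differences of -0.25, -0.26 and -0.56 in animals 1322, 1623 and 3622. The summed CPM of 10 endothelial markers was higher in the border zone of animals 1022 (591.4 against 310.4), 1323 (469.9 against 375.1) and 1922 (521.3 against 398.6), and lower in animals 1322 (521.4 against 714.6), 1623 (417.7 against 485.9) and 3622 (540.9 against 638.7). Single endothelial markers were higher on the border zone side in 1 to 5 of 6 animals. The summed CPM of the adipocyte markers also split the animals in this way, but its most abundant gene FABP4 was at a log2 fold change of -0.46 and higher in 3 of 6, while ADIPOQ was higher in 5 of 6 and PLIN1 and CIDEC in 4 of 6 each. Such signs depend in part on scaling, and the remote libraries of animals 1322 and 3622 had the lowest TMM factors, 0.8145 and 0.6712. In animal 1322 COL15A1 had 2708 of 20866200 border and 3242 of 25362271 remote counts. In animal 3622 it had 2008 of 15130210 and 2716 of 22295451. As shares, the border zone was higher in both. With library totals the log2 fold change of COL15A1 was 1.14 (adjusted p = 0.0517 by edgeR). The marker sums used these factors too. These splits were seen after the values were known, and their part in the result was not tested.

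COL18A1 (ENSSSCG00000038089), the source of endostatin, had a CPM of 206.7 to 368.5 in the remote zone (median 293.3) and of 350.0 to 819.7 in the border zone (median 617.8). Its log2 fold change was 1.02 (standard error 0.25, adjusted p = 0.0501 by edgeR, and 0.98 ± 0.22 with adjusted p = 0.0773 with the block). The border zone was higher in all 6 animals, by 0.14 in animal 1922 and by 0.70 to 1.59 in the others, so the differences of COL18A1 were small and had one sign. It was also the only member whose largest difference was not in animal 1022 but in animal 3622.

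Per length of exon, levels of different genes could be set side by side for the 9 genes with a model. In the remote zone COL6A2 and COL18A1 were highest, with medians of 46.2 and 41.8 CPM per kb, followed by COL15A1 with 21.8, COL6A3 with 8.83 and COL14A1 with 5.76. COL6A2 was above COL18A1 in only 3 of 6 remote libraries, so these neighbours did not differ beyond their spread. COL8A1, COL16A1, COL12A1 and COL8A2 had remote medians of 3.12, 2.96, 0.604 and 0.0172 CPM per kb. COL8A1 was above COL16A1 in 2 of 6 remote libraries, again without a clear order, while the ranges of COL16A1, COL12A1 and COL8A2 were apart from one another. In the border zone the medians were 123.1 for COL6A2, 88.1 for COL18A1, 31.8 for COL6A3, 29.6 for COL15A1, 19.5 for COL14A1, 14.98 for COL8A1, 11.8 for COL16A1, 5.67 for COL12A1 and 1.004 for COL8A2. COL6A2 was now above COL18A1 in all 6 libraries, and COL6A3 was above COL15A1 in 3 of 6, where COL15A1 had been above COL6A3 in all 6 remote libraries. The ranges of every pair of neighbours overlapped in the border zone. For scale, the fibrillar chains COL1A1 and COL3A1 had remote medians of 65.3 and 133.6 CPM per kb and border medians of 428.7 and 693.9.

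**Figure D3:**
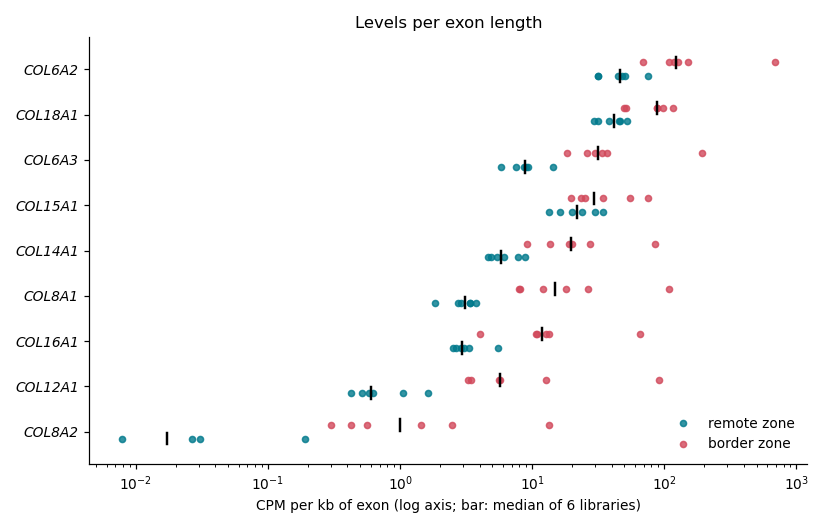
The level of 9 collagen genes in CPM per kb of exon is plotted on a log axis, 1 point per library, with a bar at the median of 6 libraries per region. The border points of COL6A3, COL8A1, COL8A2, COL12A1 and COL14A1 lie to the right of all remote points of the same gene. Those of COL6A2, COL15A1, COL16A1 and COL18A1 overlap them. The 2 remote libraries with 0 reads of COL8A2 are not drawn.

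Between animals the border zone varied more than the remote zone. The standard deviation of log2 CPM was larger in the border zone for all 10 members. It was larger for 6 members when only the border library of animal 1022 was left out and all 6 remote libraries were kept. The highest border value over the lowest was 2.34 for COL18A1, 3.79 for COL15A1, 9.30 for COL14A1, 28.1 for COL12A1 and 44.3 for COL8A2. In animal 1022 all 10 members had their highest border value, and 9 of 10 their largest difference. That library held 74.9% of the border zone CPM of COL12A1 summed over the 6 animals, 71.8% of that of COL8A2 and 23.7% of that of COL18A1, where equal shares would be 1 in 6.

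The median difference over the 10 members, on the log2 scale, was 4.62 in animal 1022, 1.97 in animal 1922, 1.86 in animal 1323, 1.41 in animal 1623, 1.004 in animal 3622 and 0.69 in animal 1322. Inside an animal the members ranged from 1.15 to 9.09 in animal 1022, from -0.25 to 4.25 in animal 1322, from 1.06 to 2.32 in animal 1323, from -0.26 to 5.73 in animal 1623, from 0.14 to 4.73 in animal 1922 and from -0.56 to 5.08 in animal 3622. Animal 1323 was thus the most even across the members, with COL16A1 highest. COL8A2 had the largest difference of the 10 members in each of the other 5 animals.

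**Figure D4:**
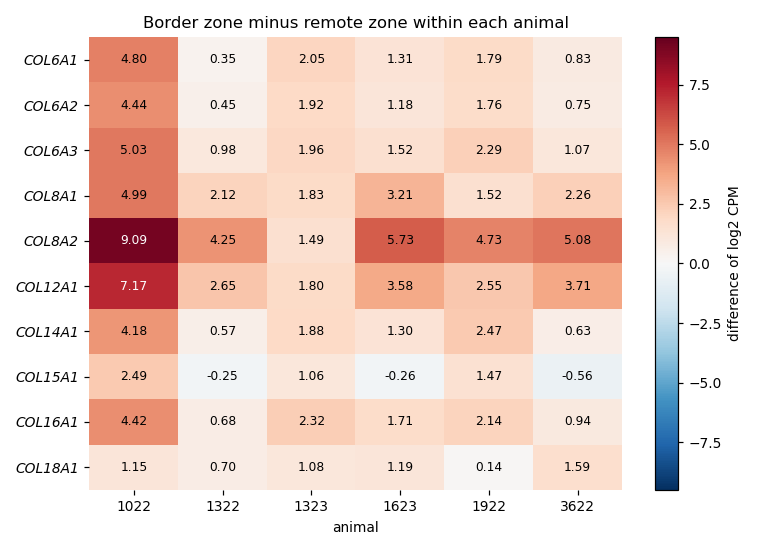
The difference of log2 CPM (prior count 2) between border zone and remote zone is printed and colored for each of the 10 collagen genes (vertical) in each of the 6 animals (horizontal). Red is higher in the border zone and blue lower, with the largest value, 9.09, for COL8A2 in animal 1022 and the 3 values below 0 all in COL15A1.

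Without both libraries of animal 1022, all 10 members kept a positive log2 fold change and 6 of 10 were called by edgeR, against 1.18% of genes tested in either direction. The log2 fold changes of COL6A1, COL6A2 and COL6A3 were then 1.23, 1.19 and 1.56, with adjusted p = 0.0838, 0.0473 and 0.0100 by edgeR. Those of COL8A1, COL12A1, COL14A1 and COL16A1 were 2.31, 2.85, 1.43 and 1.61, with adjusted p = 0.0100, 0.0123, 0.0301 and 0.0313. COL8A2 was 4.21 with adjusted p = 0.0507 by edgeR, and was the member that lost its call, and without animal 1323 it was 7.97. COL15A1 was at 0.34 and COL18A1 at 0.97, with adjusted p = 0.619 and 0.0705. Leaving out animal 1323, 1623, 1922 or 3622 left 0 of 10 called by edgeR, where 3, 0, 15 and 0 genes were called over all genes tested. At an unadjusted p under 0.05 there were 9, 10, 9 and 10 members, and 2738 of 13784, 2662 of 13745, 3104 of 14008 and 2448 of 13858 genes over all. Leaving out animal 1322 left 9 of 10 called, where 519 of 13966 genes were called. The Wald test of DESeq2 called 9 of 10, all but COL15A1, against 10.2% of the genes it tested. Over all alternatives tried (13, or 12 for COL8A2) the adjusted p of the collagen VI chains ran, for COL6A1 from 0.00122 to 0.164, COL6A2 from 0.000943 to 0.159 and COL6A3 from 4.30e-05 to 0.129. For collagen VIII it ran, for COL8A1 from 7.61e-07 to 0.108 and COL8A2 from 0.000125 to 0.111, and, for COL12A1 from 6.15e-06 to 0.108, COL14A1 from 0.000164 to 0.135 and COL16A1 from 0.000137 to 0.138. For COL15A1, it ran from 0.0517 to 0.619 and COL18A1 from 0.00196 to 0.164.

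Summed over the 10 members, the CPM was higher in the border zone of every animal. It went from 859.0 to 12956 in animal 1022, from 872.5 to 2679 in animal 1323, from 955.8 to 2685 in animal 1922 and from 1001 to 2465 in animal 1623. It went from 1401 to 2677 in animal 3622 and from 1002 to 1449 in animal 1322, so the ratio of border to remote ran from 1.45 to 15.1. The remote sums in CPM were alike in 5 animals and highest in animal 3622, whose remote library had the lowest TMM factor, 0.671. As a share of counts the members made up 0.094% there and 0.1075% in the remote library of animal 1623. Of the summed CPM, COL18A1 made up a median of 30.1% in the remote zone and 24.0% in the border zone, and COL15A1 11.8% and 5.65%. COL12A1 made up 0.805% and 2.64%, with a highest border share of 8.52%, and COL6A3 9.16% and 12.6%.

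Ratios of chains inside a library depend little on how libraries are scaled, and they were compared inside each animal with an exact two-sided permutation test over the 64 sign changes of 6 animals, whose smallest p is 0.03125. None of 16 ratios had an adjusted p under 0.05, which a ratio at the smallest p can reach here only if more than 10 of the 16 share it. Within collagen VI, the CPM ratio of COL6A2 to COL6A1 was 0.740 to 0.956 in the remote zone and 0.683 to 0.928 in the border zone. The mean log2 ratio changed by -0.11 (SD 0.15, n = 6 animals, higher in 1 of 6, exact permutation p = 0.125, adjusted 0.167), and by -0.06 without animal 1022. That of COL6A3 to COL6A1 changed by 0.29 (SD 0.25, n = 6, higher in 5 of 6, exact permutation p = 0.0625, adjusted 0.1), with median CPM ratios of 0.386 in the remote zone and 0.518 in the border zone. Over the 12 libraries these ratios ran from 0.683 to 0.956 and from 0.333 to 0.593, where the CPM of COL6A1 ran from 148.3 to 4191.

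The log2 ratio of COL8A2 to COL8A1 was higher on the border zone side in 5 of 6 animals, by a mean of 2.41 (SD 1.51, n = 6, exact permutation p = 0.0625, adjusted 0.1), and animal 1323 went the other way at -0.35. The size of this change depends on the prior count added to the few remote reads of COL8A2, since with a prior count of 0.5 the mean was 3.39, and without animal 1323 it was 2.96. The CPM ratio of COL12A1 to COL14A1 had a median of 0.205 in the remote zone (0.0774 to 0.492) and of 0.622 in the border zone (0.204 to 1.76). Its log2 value changed by 1.74 (SD 1.40, n = 6, higher in 5 of 6, exact permutation p = 0.0625, adjusted 0.1), with -0.07 in animal 1323 and 0.08 in animal 1922. COL16A1 followed COL14A1 closely, with a change of 0.20 (SD 0.29, n = 6, higher in 5 of 6, exact permutation p = 0.156, adjusted 0.192), and of 0.30 without animal 1922. COL18A1 against COL15A1 had no common direction, with a mean of 0.32 (SD 1.45, n = 6, higher in 4 of 6, exact permutation p = 0.594), and with 1 animal left out the mean ran from -0.05 (without 3622) to 0.65 (without 1022 or 1922). Without the pairing, in an exact permutation test of 6 against 6 libraries, COL8A2 to COL8A1 and COL12A1 to COL14A1 had adjusted p = 0.0173 and 0.0269.

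**Figure D5:**
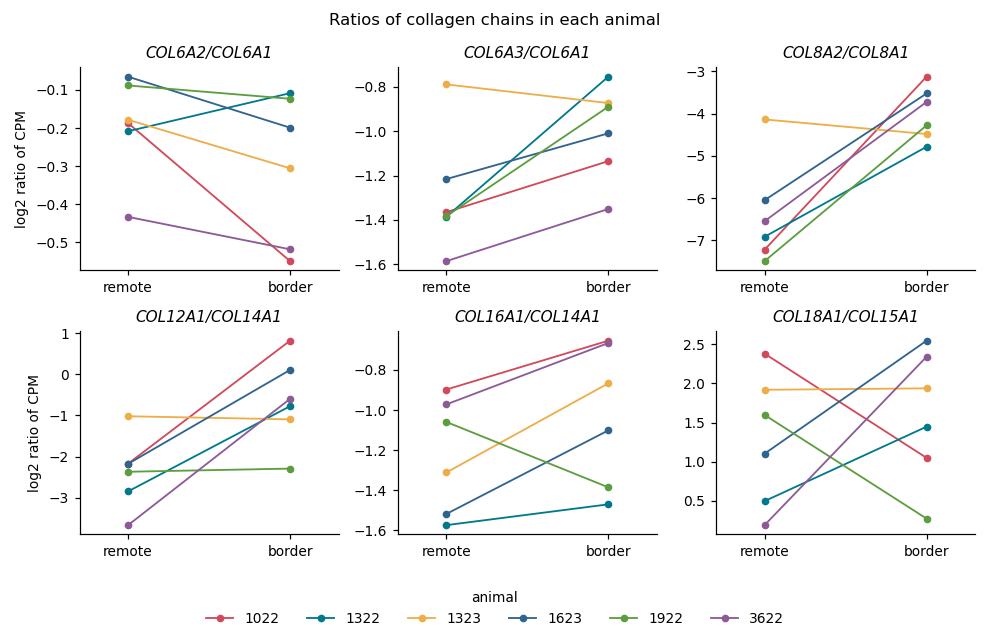
Each panel plots the log2 ratio of the CPM of 2 collagen chains in the remote and border zone, with 1 line per animal and its own vertical scale. COL8A2/COL8A1 and COL12A1/COL14A1 rise in 5 of 6 animals with a mean change of 2.41 and 1.74, while COL6A2/COL6A1 moves by a mean of -0.11.

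Set against COL1A1, the main chain of the large fibrils, 6 members had a lower ratio on the border zone side in each of the 6 animals. These were COL6A1, COL6A2, COL6A3, COL14A1, COL15A1 and COL16A1, with mean log2 changes of -1.19, -1.30, -0.91, -1.21, -2.39 and -1.01 (exact permutation p = 0.03125 each, the smallest that 6 animals can give, adjusted 0.0833). COL18A1 had a lower ratio to COL1A1 in 5 of 6 animals, with a mean change of -2.07 (SD 2.25, n = 6, exact permutation p = 0.0625, adjusted 0.1). COL8A1 was higher relative to COL1A1 in 3 of 6 animals (mean -0.39, SD 1.51), COL12A1 in 4 of 6 (mean 0.53, SD 1.41) and COL8A2 in 5 of 6 (mean 2.01, SD 1.91, and 2.998 with a prior count of 0.5). Without animal 1022 the mean change of COL18A1 relative to COL1A1 was -1.31. With 1 animal left out that of COL8A1 ran from -0.68 (without 1322) to -0.04 (without 1922), and that of COL12A1 from 0.19 (without 3622) to 0.85 (without 1922). Unpaired, 8 of these 10 ratios had an adjusted p under 0.05 by the exact permutation test, all but those of COL8A1 and COL12A1.

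Patterns across the 12 libraries were compared by the root mean square difference of log2 CPM after each gene was centred on its mean, over 11726 genes with a symbol. This is a description, since the libraries share regions and animals. Among the 45 pairs of members the closest were COL6A1 and COL6A2 (0.16), COL6A2 and COL6A3 (0.26) and COL6A1 and COL6A3 (0.26), and the farthest were COL8A2 and COL15A1 (2.71). The genes outside the set nearest to COL6A1 were SSC5D (0.22) and CERCAM (0.27), and those nearest to COL6A2 were the collagen uptake receptor gene MRC2 (0.20) and the gelatinase gene MMP2 (0.20). COL6A3 was nearest to PRELP (0.18), a leucine-rich repeat protein of the matrix, and to the minor fibrillar chain COL5A1 (0.19). COL8A1 was nearest to LTBP2 (0.21), which lies on microfibrils, and to THBS3 (0.35).

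COL12A1 was nearest to FN1, fibronectin (0.41), and to FMOD, fibromodulin (0.46), and COL8A2 to CRABP2 (0.76) and to TNC, tenascin-C (0.77). The nearest genes to COL14A1 were CYBRD1 (0.23) and MMP2 (0.23), and to COL16A1 they were RRBP1 (0.26) and PRELP (0.27). COL15A1 was nearest to LTBP4 (0.20) and EHD2 (0.24), and COL18A1 to KAZN (0.18) and the integrin beta 1 gene ITGB1 (0.22). Without animal 1022 the first neighbour stayed first for COL6A2 and COL8A1 and fell to rank 6 for COL6A1 and 7 for COL14A1, and of the second neighbours ITGB1 fell to rank 16 for COL18A1.

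Other genes of collagen assembly, binding and turnover were counted in lists with the same fit, and 0 genes of these lists fell. Of 11 fibrillar collagen genes, 9 were tested and 7 rose by edgeR, 0 with the block, with a median log2 fold change of 2.98 over those tested. COL11A1, a minor chain of thin fibrils, rose by 7.13 (standard error 1.58, adjusted p = 0.0356 by edgeR, 0.0773 with the block), COL1A1 by 4.05 (0.81, adjusted p = 0.0295, 0.0821 with the block) and COL1A2 by 3.27 (0.68, adjusted p = 0.0328, 0.0844 with the block). COL5A3 had the smallest value, 1.52 (0.43, adjusted p = 0.0691). Of 17 other non-fibrillar collagen genes 6 were tested and 0 were called by edgeR (4 at an unadjusted p under 0.05), with a median of 1.08 and the smallest value at the transmembrane collagen COL23A1 (0.23, adjusted p = 0.688 by edgeR). Of 6 collagen IV genes 4 were tested and 0 were called by edgeR (3 at an unadjusted p under 0.05), with a median of 0.69 and COL4A5 lowest at 0.51 (adjusted p = 0.296 by edgeR). Beside the unadjusted counts of these lists, 17% of all genes tested were past that mark and higher. The Wald test of DESeq2 called 3 of 12 and 1 of 5 genes of these 2 lists, where 1719 of 16776 genes were called over all. For edgeR with library totals it was 3 of 6 and 1 of 4 (1551 of 13844 over all). With no filter edgeR called 1 of 13 and 0 of 6 (139 of 30085), and without animal 1322 it called 2 of 7 and 0 of 4 (519 of 13966). The collagen IV median was nearer to the values of COL15A1 and COL18A1 than to those of collagens VI, VIII, XII, XIV and XVI, a difference that was not tested.

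Of 18 genes of matrix proteins that bind collagens, all were tested and 10 rose by edgeR, 1 of them (POSTN, periostin) also with the block, with a median of 1.74. TNC, a glycoprotein of healing tissue, rose by 5.31 (standard error 0.95, adjusted p = 0.0253 by edgeR, 0.0564 with the block). FN1 rose by 5.09 (1.02, adjusted p = 0.0294, 0.0748 with the block) and FMOD, which coats fibrils, by 4.83 (0.93, adjusted p = 0.0276, 0.0773 with the block). VWA1, a partner of collagen VI near basement membranes, had the smallest value, 0.17 (0.27, adjusted p = 0.740). Of 13 collagen receptor genes 12 were tested and 3 rose, 0 with the block. These were ITGA11, the alpha chain of a fibroblast integrin, by 3.05 (0.65, adjusted p = 0.0338 by edgeR), ANTXR1, a receptor that binds collagen VI, by 2.17 (0.50, adjusted p = 0.0426), and MRC2 by 1.83 (0.44, adjusted p = 0.0494), while the receptor kinase DDR1 was at 0.13 (0.24, adjusted p = 0.779). With the block their adjusted p was 0.0808, 0.0864 and 0.0874 by edgeR.

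Of 21 genes for folding, modification and processing of collagen, 20 were tested and 7 rose by edgeR, 0 with the block, with a median of 1.13. P4HA3, a subunit of prolyl hydroxylase, rose by 5.50 (standard error 1.06, adjusted p = 0.0276 by edgeR), from a remote zone CPM of at most 0.401. The cross-linking oxidases LOX and LOXL1 rose by 3.11 and 2.57 (standard errors 0.60 and 0.50, adjusted p = 0.0276 each by edgeR), and P4HB, the partner subunit of prolyl hydroxylase, was at 0.37 (adjusted p = 0.241). With the block the adjusted p of P4HA3, LOX and LOXL1 was 0.0694, 0.0798 and 0.0564 by edgeR. Of 12 protease genes 7 were tested and 2 rose, 0 with the block. The filter on low counts left out 5, among them MMP9 and MMP12, which had up to 16644 and 1314 counts in a library. MMP2 rose by 2.27 (standard error 0.49, adjusted p = 0.0338 by edgeR, 0.0895 with the block). CTSL, a cathepsin that can free endostatin, rose by 3.08 (0.68, adjusted p = 0.0350, 0.0798 with the block) at a CPM of no more than 4.86 in any library, and ELANE was at -0.12 (adjusted p = 0.891). Counts of these 5 lists changed with the animals included. Without animal 1022 the genes called by edgeR were 5 fibrillar collagens (median 1.81), 10 binding proteins (1.195), 2 receptors (0.94), 5 folding genes (0.90) and 1 protease (0.87), where 163 genes were called over all. Without animal 1323, 1623, 1922 or 3622, where 3, 0, 15 and 0 genes were called over all, 0 genes of each list were called by edgeR. In these 4 runs the medians were 2.99 to 3.30 for fibrillar collagens, 1.75 to 1.88 for binding proteins, 1.29 to 1.43 for receptors, 1.05 to 1.29 for folding genes and 1.90 to 2.08 for proteases, so they stayed near those with all animals.

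Levels of cell type markers were read in the same libraries. Of 14 cardiomyocyte markers 11 were tested and 0 were called, with a median log2 fold change of -0.29. Of the 11, 2 were positive, NPPB (2.46, higher in 5 of 6 animals) and NPPA (2.09, higher in 4 of 6). The summed CPM of the cardiomyocyte markers ran from 11364 to 57731 over border zone libraries and from 48608 to 82618 over remote zone libraries. The border zone sum was the lower one in each animal. The lowest sum was in the border zone of animal 1022, the library with the highest level of each member, and all libraries held heart muscle transcripts as labelled. Of 12 fibroblast markers other than collagens 11 were tested and 6 rose by edgeR (2 with the block), with a sum of 820.3 to 4617 in the border zone against 436.0 to 820.0 in the remote zone and a median log2 fold change of 1.37. Their highest sum was also in the border zone of animal 1022. Of these markers, 4 (DCN, LUM, POSTN and FBLN1) stand in the list of binding proteins too and DDR2 in that of receptors. The sums of smooth muscle and pericyte markers (954.7 to 3265 against 673.6 to 1062) and of macrophage markers (135.6 to 1662 against 122.1 to 259.5) exceeded the remote zone value in 5 of 6 animals, with 0 of 11 and 1 of 10 called. Of the 11 smooth muscle and pericyte markers 4 had a negative log2 fold change, RGS5 (-0.22), ABCC9 (-0.15), KCNJ8 (-0.32) and SMTN (-0.57). The macrophage marker called was LYZ, lysozyme (adjusted p = 0.0404 by edgeR, 0.0814 with the block). Endothelial markers had sums of 417.7 to 591.4 and 310.4 to 714.6, with 0 of 10 called and a median of 0.12. Of the markers of lymphocytes, neutrophils, adipocytes, epicardium and nerve, 15 were tested and 0 were called by edgeR without the block, and 1 with it (ADIPOQ). The part of these cell types in the collagen results was not tested.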

How the data were processed

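The authors aligned reads of poly(A)-enriched, nondirectional libraries to Sscrofa11.1 with Ensembl genes by STAR and counted them per gene with featureCounts. The deposited values are raw counts, 1 table per library, without normalization. The submitters' processing notes also name MultiQC and DESeq2. The labels name Trizol or an RNeasy kit for extraction, while the study's methods name another kit. Options for reads that match several genes are not given in the sources used here. Region and animal came from the sample titles, and treatment was not used.

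Symbols were paired with 15623 of 35682 identifiers. In all, 13844 genes passed filterByExpr and were tested with edgeR 4.0.16 under R 4.3.3, by the robust quasi-likelihood test on counts with TMM factors and region as the only term, with Benjamini-Hochberg adjustment and a threshold of 0.05. This threshold is the one of the study. Standard errors were derived from the fit, as the ratio of a log2 fold change to the root of its F value. Log2 CPM used a prior count of 2. CPM per kb used the union of RefSeq exons, so it is approximate where Ensembl exons differ. The ratio tests and descriptions used SciPy 1.17.1, NumPy 2.4.6 and pandas 2.3.3 under Python 3.11.15, and figures matplotlib 3.10.9. DESeq2 1.42.0 served as an alternative. The steps were tested on simulated data with 200 genes changed.

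Each animal number stands for 1 pig with a library from either region, which pairs the libraries. As a check, deviations from the region means were correlated between the libraries of a pig. Across genes r averaged 0.35 and was lowest in animal 1022 (-0.03) and highest in animal 1323 (0.57), with 4 of 6 values over 0.1. No pair of the 30 compared inside a region agreed within sampling noise. Library totals were 15130210 to 31618680 counts, and counts may hold PCR copies of a molecule.

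The members and lists were chosen with earlier results of these data known. Named genes are the 10 members, the 2 nearest genes of each, and from each list of collagen-related genes up to 3 with the largest log2 fold change among those called and 1 with the smallest. The markers of the other cell types were read as lists. Alternatives were the animal as a block, the DESeq2 Wald test, its size factors, scaling by library totals, testing unfiltered genes or those with 10 counts or more throughout, removal of mitochondrial genes, leaving out each animal, a prior count of 0.5 and ratios tested without pairing.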

Additional observations from a re-analysis of the deposited data

Results flagged for a closer look

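In 4 of 26 groups of 6 values 1 library was set apart from the others by Dixon's criterion, which chance does in about 1 group of 20. In the border zone the log2 CPM of COL6A1 was 12.03 in animal 1022, and the next highest library had 9.58. COL6A2 was at 11.48 in the same library, with the next at 9.29. COL6A3 was at 10.9 there, with the next at 8.53. These 3 values come from 1 library and from chains whose patterns were the closest of all members, so they are not separate observations. In that library the 13 mitochondrial protein genes took 5.69% of counts, the least of the 12 libraries, and its cardiomyocyte marker sum was the lowest, 11364 CPM. Their part in the result was not tested.

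In the remote zone the log2 CPM of COL16A1 was 5.07 in animal 3622, and the next highest library had 4.33. That library had the highest mitochondrial share, 33.46%, and the lowest TMM factor, 0.671, and their part in this value was not tested.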

How the results depend on the processing

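Of 129 fold changes of members under alternatives, 0 changed sign, 77 kept their side of the threshold, 46 lost their call and 6 gained one. The count of members called was 7 of 10. It was 0 with the animal as a replicate block and 0 with no filter. At an unadjusted p under 0.05 there were 9 and 10 members, and 4069 of 13844 and 7776 of 30085 genes over all. The count called was 9 with the DESeq2 Wald test, 6 with DESeq2 size factors, 9 with library totals and 6 without mitochondrial genes. It was 5 of 9 when each library had to hold at least 10 counts, where COL8A2 was not tested. Leaving out 1 animal gave 0 to 9 members: 6 without 1022, 9 without 1322 and 0 without 1323, 1623, 1922 or 3622, with 9 or 10 at an unadjusted p under 0.05.

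Over all genes, edgeR called 287 (285 higher). The count was 41 with the block (40 higher), 1719 of 16776 with the DESeq2 Wald test (1412 higher), 1551 with library totals (1545 higher), 211 with DESeq2 size factors, 254 of 13834 without mitochondrial genes, 139 of 30085 with no filter and 149 of 12123 with at least 10 counts. With 1 animal left out it ran from 0 to 519, with 0 without 1623 or 3622, where 2662 and 2448 genes passed 0.05 before adjustment (2738 without 1323 and 3104 without 1922). Scaling by library totals shifted the median over all genes (log2) from 0.04 to 0.32, and testing with no filter shifted it to 0.75. Where a fold change moved, the cause was not tested.

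Of 16 chain ratios 0 were called when paired by animal, and 10 without the replicate block, and 0 with a prior count of 0.5 or library totals. The median difference of summed CPM was 1597, 1920 with library totals and 1465 to 1729 with 1 animal left out. Of 91 list counts, 48 moved by over 1.5 times or to or from 0. Depth limits COL8A2 most, with 0 to 29 remote reads.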
